A study of Homo sapiens with 8 samples.

Results

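The vehicle foam cells were the 4 libraries of the series that received DMSO (dimethyl sulfoxide) without the study drug, out of 8 libraries in all, and they were selected by treatment label. Each library came from THP-1 cells, an established human monocytic leukaemia line, made to differentiate to macrophages by 72 h in PMA (a phorbol ester) at 50 ng/mL. They were then given acetylated low-density lipoprotein for 48 h in the presence of DMSO below 0.1% by volume. In the sample protocol the vehicle begins 24 h ahead of the lipid and stays until the end; the design text of the series describes treatment of cells already loaded. Poly-A RNA was sequenced from 250 ng of total RNA with a stranded preparation, and gene expression was measured as read counts per gene. No macrophages without lipid load were among the samples used here, so the values describe the level of each gene in loaded cells and not a response to loading. Whether the 4 libraries are separate cultures is not stated in the labels, and the spread between them may be technical.

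Foam cells are macrophages that have taken up modified lipoprotein through scavenger receptors and store its cholesterol as esters in lipid droplets. Lysosomal acid lipase frees the cholesterol of the particle, acyltransferases in the endoplasmic reticulum re-esterify it, and transporters driven by the liver X receptors pass it out of the cell to apolipoproteins. Cells of this kind fill the atherosclerotic plaque, where they also secrete proteases and matrix proteins.

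The counts summed to 27278947, 24537054, 22498292 and 19336073 in DMSO replicates 1 to 4. Counts were scaled by library size to a common total (CPM), in which 1 CPM stood for 19.8 to 27.3 counts. A count of 0 allows a level of up to 0.110 to 0.152 CPM, the value of 3 counts, and covers counting error only. For comparison between genes the counts were also divided by exon length and scaled to a common total again (TPM, the per-length level). Ribosomal RNA outside mitochondria took 0.743% to 0.963% of counts and transcripts of the mitochondrial genome 2.57% to 3.00%. No pair of libraries agreed within sampling noise, since the chi-square per degree of freedom between them was 2.96 to 10.9. The most alike libraries were DMSO replicates 2 and 3, in which 3 of 8934 protein-coding genes at 10 CPM or more differed by 0.5 or more on the log2 scale, followed by DMSO replicates 1 and 4, with 28 such genes. The least alike were DMSO replicates 2 and 4, with 204. The library names pair the samples otherwise, by a final number that DMSO replicates 1 and 2 share and by a letter b on DMSO replicates 2 and 4. In edgeR's quasi-likelihood test with Benjamini-Hochberg adjustment, 0 of 17659 genes passed between the final numbers (0% called, 312 at an unadjusted p under 0.05) and 0 between names with and without the letter (0% called, 299 at an unadjusted p under 0.05). DESeq2 called 0 genes in each comparison as well, with 63 and 63 at an unadjusted p under 0.05. Both labels put DMSO replicates 2 and 3 on opposite sides, and replicates 1 and 4 as well. The difference between these pairs of like libraries thus adds to the spread within each side and makes genes harder to call. No conclusion about the labels is drawn from the counts of 0.

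Of 19812 protein-coding genes, 11723 (59.2%) were at 1 CPM or more in every vehicle library and 1877 (9.47%) had a mean of 100 CPM or more. The median protein-coding gene stood at 3.49 TPM, the 75th percentile at 20.3 TPM and the 99th percentile at 419 TPM. The 10 entries with most counts held 9.44% ± 0.357 of all counts (SD, n = 4), the 100 highest held 24.95% ± 0.671 and the 1000 highest 55.6% ± 0.845. The 86 genes of the cytosolic ribosome took 5.73% to 6.54% of counts.

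Ferritin light chain led the protein-coding genes per length. FTL, which encodes the light subunit of the iron storage shell, lies at chr19:48965301-48966878 on GRCh38 and measured 20134, 20476, 21050 and 17861 CPM in DMSO replicates 1 to 4. Its per-length level was 63594 ± 2668 TPM, and the lowest library, replicate 4, still held 59643 TPM. EEF1A1, the elongation factor that carries aminoacyl-tRNA to the ribosome, followed among nuclear genes outside the ribosome at 8039 ± 253 TPM. The levels of FTL and EEF1A1 did not overlap in any library. The elongation factor's value is uncertain, because 2 of its processed copies, EEF1A1P5 at 9117 ± 610 CPM and EEF1A1P6 at 6546 ± 450 CPM, carried counts in parallel with it. How reads matching several copies were counted shows in the pseudoautosomal genes, which have an entry on X and another on Y. Of 13 such genes, 10 had equal counts at both entries in every library and the others differed by at most 2 counts, as did the histone genes H2AC18 and H2AC19, which were equal. Reads that match both of these entries were thus counted at each, and the same counting would touch FTL, FTH1, the actins and the thymosins, which have processed copies in the genome.

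**Figure D1:**
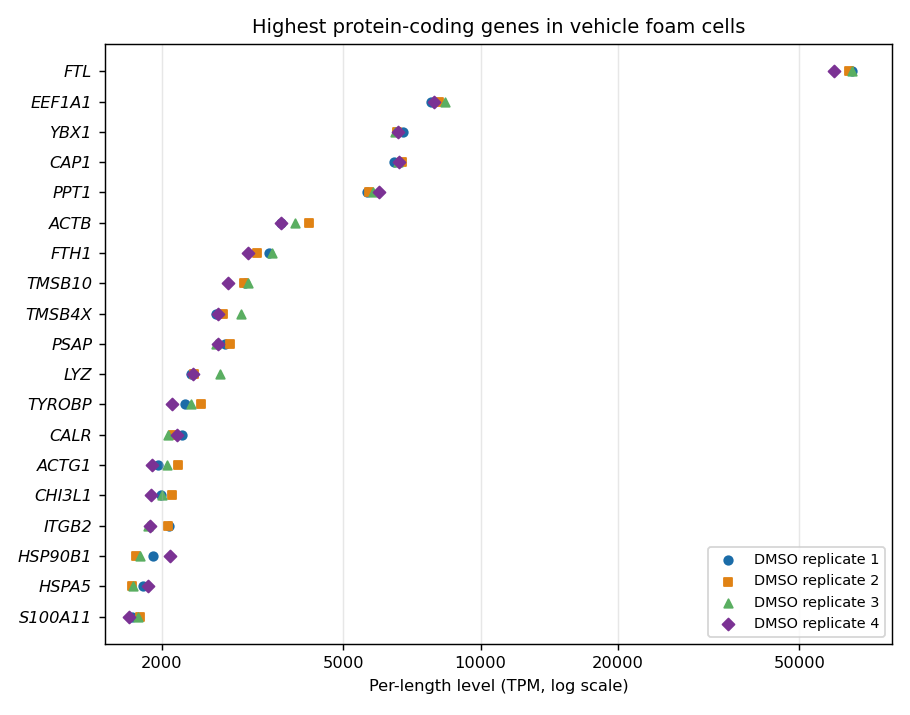
Per-length level (TPM, log scale) of 19 of the 20 highest protein-coding genes outside the mitochondrial genome and the ribosomal protein genes, with 1 point per vehicle library. FTL stands apart at 59643 to 65223 TPM, and the points of the 4 libraries lie close together within each gene.

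Next in order came YBX1, a cold-shock domain RNA-binding protein, at 6599 ± 106 TPM and CAP1, an actin-monomer recycling protein, at 6595 ± 102 TPM. These neighbours did not differ beyond their spread. PPT1, the lysosomal palmitoyl-protein thioesterase, stood at 5782 ± 148 TPM, below CAP1 in all 4 libraries. A further 14 genes of the 20 highest lay between 1743 TPM and 3855 TPM. They held the cytoskeletal genes ACTB, ACTG1, TMSB10 and TMSB4X, the heavy ferritin chain FTH1 and the lysosomal saposin precursor PSAP. The myeloid genes among them were LYZ (lysozyme), TYROBP (the DAP12 signalling adaptor), CHI3L1 (a secreted chitinase-like glycoprotein) and ITGB2 (the common integrin chain of leukocytes). CALR, HSP90B1 and HSPA5, chaperones of the endoplasmic reticulum, and the calcium-binding S100A11 were also in this set.

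Most genes that mark macrophages were high. Of 20 macrophage markers, 19 were at 1 CPM or more in every library and 17 at a mean of 100 CPM or more. The same 17 were the only members at a mean of 10 CPM or more. The list had a median of 257 TPM, percentile 98.4 of protein-coding genes. TYROBP measured 717, 803, 773 and 651 CPM in DMSO replicates 1 to 4, and FCER1G, the common Fc receptor chain, averaged 575 ± 70.4 CPM. LYZ measured 1435, 1506, 1738 and 1406 CPM, and LAPTM5, a lysosomal membrane protein of blood cells, averaged 1170 ± 99.1 CPM. CD14, the lipopolysaccharide co-receptor, measured 233, 294, 263 and 212 CPM, highest in replicate 2 and lowest in replicate 4. CD68, the usual macrophage label, was among the members under a mean of 10 CPM, at 0.330, 0.701, 4.91 and 0.404 CPM. In the annotation another gene of the same strand covers 81.7% of its exon bases, so its count is no measure of its level. The part of the overlap in the low count was not tested. No other macrophage marker had more than 10% of its exon bases so covered. The other members under a mean of 10 CPM, not named here, were at 1 CPM or more in every library.

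The cells also held transcripts of earlier stages. Of 12 monocyte markers 10 were at 1 CPM or more in every library, with a median of 28.1 TPM, percentile 80.9. The highest per length were the calprotectin subunits S100A9 at 1447 ± 169 TPM and S100A8 at 251 TPM, while FCN1, the ficolin of classical monocytes, had 0 counts in each library. Of 9 genes of the promyelocyte granule, 8 were at 1 CPM or more in every library, with a median of 371 TPM, percentile 98.8. Only 6 reached a mean of 10 CPM, the same 6 that reached 100 CPM, and the lowest member stood at 0.578 TPM. Highest per length were AZU1, which encodes azurocidin, at 527 ± 34.1 TPM and CFD (complement factor D) at 501 TPM. CTSG (cathepsin G) followed at 452 TPM and RNASE2 (eosinophil-derived neurotoxin) at 429 TPM. In bulk RNA, few cells with much transcript and many cells with little cannot be told apart.

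Markers of 11 other cell types were low. Of 64 such markers 11 were at 1 CPM or more in every library, against 59.2% of all protein-coding genes. In all 4 libraries 14 had 0 counts, which is no mark of these lists, since zeros were common. Among all 19812 protein-coding genes, those at 0 counts tie from level rank 16246 downward. CD3D and CD3E, the CD3 chains of the T cell receptor complex, averaged 0.0521 and 0.0113 CPM. The B cell marker MS4A1 and the globins HBB and HBA1 had 0 counts, and EPCAM of epithelium and COL1A2 of fibroblasts had 0 counts. A mean of 10 CPM or more was reached by 5 markers. PECAM1, the CD31 adhesion molecule that myeloid cells also carry, measured 341, 341, 329 and 330 CPM. EGFL7 averaged 48.6 ± 3.62 CPM, NKG7 21.5 ± 2.26 CPM, CD22 14.4 ± 0.464 CPM and GNLY 10.4 ± 1.00 CPM. Of 6 endothelial markers, 3 (50%) were at 1 CPM or more in every library. Beside PECAM1 and EGFL7, VWF averaged 4.75 ± 0.581 CPM, KDR 0.867 CPM, TEK 0.0410 CPM and CDH5 0.00915 CPM. The cytotoxic gene PRF1 averaged 0.0103 CPM.

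**Figure D2:**
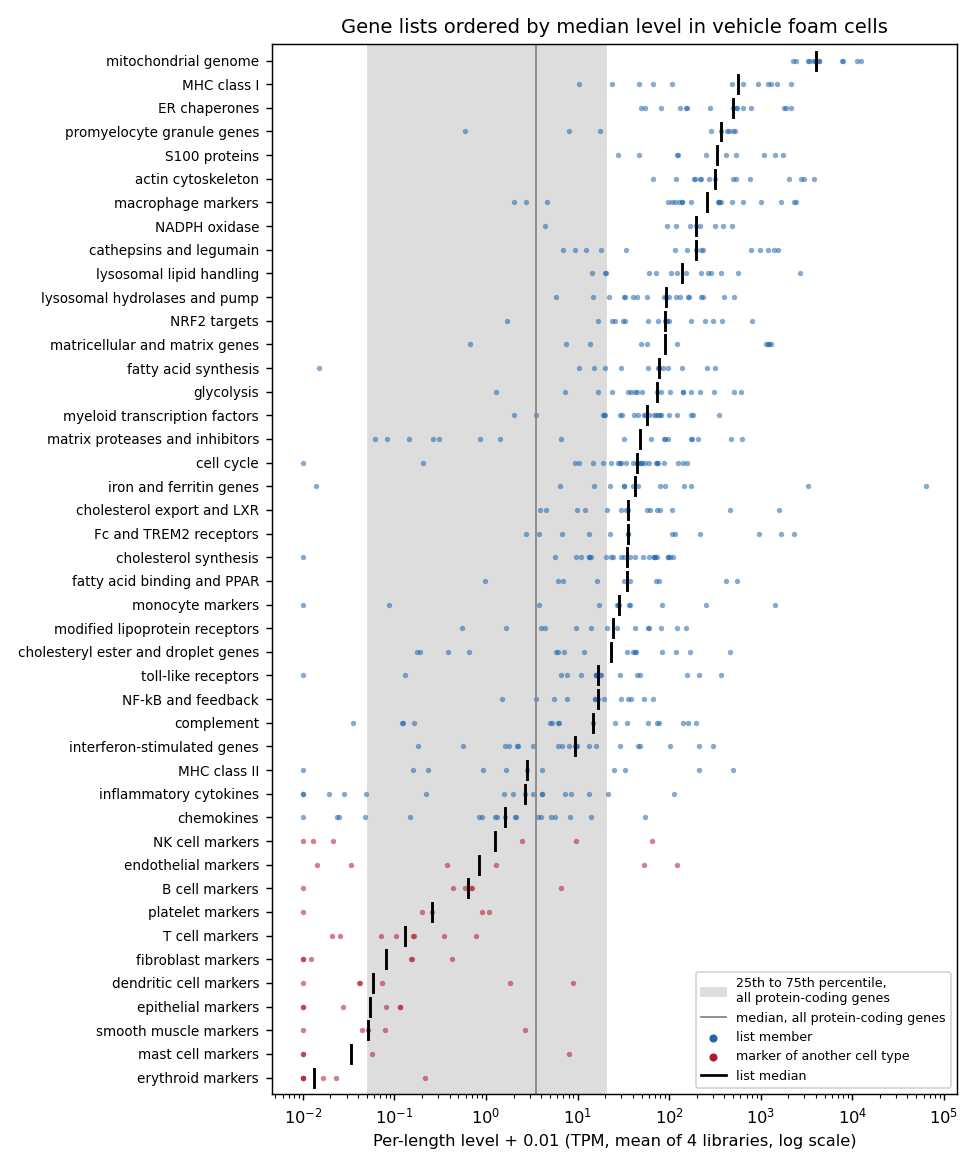
Per-length level (TPM, log scale, mean of 4 libraries, with 0.01 added so that zeros can be drawn) of every member of 44 gene lists, ordered by list median (black bar). The medians of 30 lists lie above that of all protein-coding genes (grey line, 3.49 TPM), and those of MHC class II, inflammatory cytokines, chemokines and the 11 lists of other cell types (red) lie below it.

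Receptors for modified lipoprotein were present at uneven levels. Of 14 receptors, 13 were at 1 CPM or more in every library and 6 at a mean of 100 CPM or more, with a median of 24.1 TPM, percentile 78.1. CD36, a scavenger receptor for oxidised lipoprotein and fatty acids, led per length at 154 ± 11.5 TPM and measured 573, 592, 580 and 634 CPM. LRP1, a large endocytic receptor, stood at 123 TPM. MSR1, the class A scavenger receptor that binds acetylated lipoprotein, stood at 81.3 ± 5.42 TPM and measured 212, 224, 229 and 238 CPM. SCARF2 was the member below 1 CPM in every library.

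Lysosomal genes that break down and release lipid stood higher. All 14 members of that list were at 1 CPM or more in every library, with a median of 137 TPM, percentile 96.7. PSAP, the precursor of the saposins that assist lipid hydrolysis, stood at 2716 ± 88.5 TPM. NPC2, which takes cholesterol from the lysosome lumen, was at 562 TPM and its membrane partner NPC1 at 20.5 ± 1.70 TPM. LIPA, the acid lipase that hydrolyses the esters of the particle, stood at 289 ± 10.8 TPM and varied little, at 493, 503, 508 and 510 CPM.

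Storage genes were mostly at intermediate levels. Of 16 genes of ester and droplet metabolism, 12 were at 1 CPM or more in every library and 2 at a mean of 100 CPM or more, with a median of 23.0 TPM, percentile 77.4. PLIN2, the coat protein of lipid droplets in macrophages, measured 798, 887, 902 and 783 CPM and stood at 465 ± 19.1 TPM. G0S2, an inhibitor of the droplet lipase, stood at 168 ± 29.2 TPM, with 58.3 and 57.7 CPM in DMSO replicates 1 and 4 and 44.98 and 45.32 CPM in replicates 2 and 3. SOAT1, the acyltransferase that makes cholesteryl ester, was at 34.3 ± 2.85 TPM and NCEH1, a neutral ester hydrolase, at 40.2 TPM. LIPE and PLIN4, a lipase and a coat protein best known from fat cells, averaged 0.698 and 0.412 CPM.

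All 15 genes of cholesterol export and the liver X receptor response were at 1 CPM or more in every library, with a median of 35.9 TPM, percentile 85.0. APOE, a secreted acceptor of cholesterol, led at 1596 ± 87.7 TPM and measured 1305, 1303, 1249 and 1120 CPM. ABCA1, the transporter that loads cholesterol onto lipid-poor apolipoprotein A-I, stood at 107 ± 3.33 TPM with libraries of 418, 431, 451 and 432 CPM. ABCG1, which exports to mature particles, stood at 35.9 ± 2.30 TPM. ABCA1 therefore lay above ABCG1 per length, in each of the 4 libraries. LPL, the secreted lipase that frees fatty acids from triglyceride, was at 62.0 ± 2.40 TPM. APOC1, at 464 TPM, shares 43.2% of its exon bases with another gene on the same strand and its level is uncertain.

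Genes of cholesterol synthesis were on at moderate levels. Of 24 members 23 were at 1 CPM or more in every library, with a median of 34.7 TPM, percentile 84.5. FDPS (farnesyl diphosphate synthase) led at 110 TPM. SQLE, squalene epoxidase, stood at 101 ± 6.09 TPM. INSIG1, which holds the sterol sensor in the endoplasmic reticulum, stood at 73.0 ± 8.57 TPM and measured 99.3, 84.3, 91.8 and 103 CPM, higher in DMSO replicates 1 and 4. Fatty acid synthesis had a median of 76.7 TPM, percentile 93.4, with the elongase ELOVL1 at 320 TPM and the desaturase SCD at 258 TPM, and ELOVL6 averaged 0.0126 CPM. Among fatty acid binding proteins FABP5 stood at 550 ± 20.4 TPM and FABP4, a marker of lipid-loaded macrophages, at 419 ± 22.9 TPM. The receptor genes PPARD and RXRA were at 76.8 and 71.1 TPM.

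Promoter sequences are shown for 4 of these genes, because the match to a myeloid factor's motif lies in a gene of the 20 highest and because 3 lipid genes hold both a TATA box sequence and an E box. Of the 44 genes named by level or chosen for foam cell biology, 28 had an entry in the RefSeq promoter table (GRCh38.p14), which gives 250 bases before and 50 after the start. Both strands were searched for the PU.1 core GAGGAAGT, the AP-1 site TGAGTCA, the TATA box TATAAA, the E box CACGTG and a sterol element TCACCCCAC, of which no pair overlaps in the sequences shown. Capitals mark the matches, and a match on the other strand appears as its reverse complement. The stretches are chr19:35908246-35908545 for TYROBP, chr9:19127443-19127742 for PLIN2 and chr9:104928106-104928405 for ABCA1, all on the minus strand, and chr7:155297628-155297927 for INSIG1 on the plus strand, each written 5′ to 3′ along the gene.
TYROBP: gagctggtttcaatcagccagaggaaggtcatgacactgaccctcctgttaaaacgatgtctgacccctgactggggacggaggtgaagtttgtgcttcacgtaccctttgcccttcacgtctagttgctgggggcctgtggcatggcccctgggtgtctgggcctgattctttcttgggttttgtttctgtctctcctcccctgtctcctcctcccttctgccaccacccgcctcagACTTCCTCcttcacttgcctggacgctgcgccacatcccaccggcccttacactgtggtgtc
PLIN2: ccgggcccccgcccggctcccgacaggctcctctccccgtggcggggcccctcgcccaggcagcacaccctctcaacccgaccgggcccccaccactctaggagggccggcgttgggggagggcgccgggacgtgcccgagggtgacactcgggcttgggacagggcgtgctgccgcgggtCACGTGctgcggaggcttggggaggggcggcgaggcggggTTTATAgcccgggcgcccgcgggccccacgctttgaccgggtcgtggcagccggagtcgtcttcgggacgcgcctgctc
ABCA1: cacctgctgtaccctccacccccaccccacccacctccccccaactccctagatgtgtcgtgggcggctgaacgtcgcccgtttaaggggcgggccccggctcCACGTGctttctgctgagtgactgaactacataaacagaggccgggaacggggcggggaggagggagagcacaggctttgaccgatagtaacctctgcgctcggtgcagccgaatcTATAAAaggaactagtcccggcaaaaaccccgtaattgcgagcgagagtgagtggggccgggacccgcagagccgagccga
INSIG1: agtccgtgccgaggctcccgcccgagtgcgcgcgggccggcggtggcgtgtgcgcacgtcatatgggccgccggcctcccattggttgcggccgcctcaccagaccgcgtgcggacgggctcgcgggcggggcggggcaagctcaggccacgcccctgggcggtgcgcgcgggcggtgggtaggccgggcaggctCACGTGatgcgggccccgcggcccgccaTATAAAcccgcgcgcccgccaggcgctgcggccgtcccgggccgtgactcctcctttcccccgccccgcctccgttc
The PU.1 core of TYROBP begins 12 bases before the start, on the other strand. The only further match of this core among the 28 promoters was in NCEH1. Of the 15292 promoters searched in all, 2.53% held the core, over the 384 that belong to the 500 highest protein-coding genes 4.69% did, and over the 3326 of silent genes 2.22% did. The TATA letters began 31 bases before the start in ABCA1 and 27 in INSIG1, on the gene's own strand. In PLIN2 they began 29 bases before the start on the other strand. Each of the 3 also held an E box further upstream. A TATA box was in 6 of the 28 promoters, against 9.59% of all promoters, 8.33% of those of the 500 highest genes, 5.42% of those of expressed genes and 20.4% of those of silent genes. An E box was in 5 of the 28, against 8.87% of all promoters. Its share was 11.98% for the 500 highest genes, 10.3% for expressed genes and 5.98% for silent genes. The AP-1 letters were in 2 of the 28 (CD14 and CD68), against 3.68% of all promoters. Their share was 5.21% for the 500 highest genes, 2.74% for expressed genes and 5.56% for silent genes. The sterol element was in 1 (CAP1), against 0.445% of all promoters. Its share was 0.781% for the 500 highest genes, 0.427% for expressed genes and 0.511% for silent genes. These matches describe letters in a window and not binding.

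Proteases of the lysosome were among the highest groups. All 15 genes of the cathepsin list were at 1 CPM or more in every library, with a median of 195 TPM, percentile 97.9. CTSZ stood at 1540 ± 58.6 TPM, CTSL at 1200 TPM and CTSB at 984 TPM. CTSD, at 1397 ± 65.3 TPM, shares 41.7% of its exon bases with another gene on the same strand. All 19 other hydrolase, proton pump and regulator genes were at 1 CPM or more in every library, with a median of 93.4 TPM, percentile 94.8. Among them MAN2B1, the lysosomal alpha-mannosidase, stood at 397 TPM and ATP6AP1, an accessory subunit of the proton pump, at 233 TPM. Another gene of the same strand covers 21.2% of the exon bases of MAN2B1.

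Matrix genes ranged from high to near-silent. Of 18 matrix proteases and inhibitors, 12 were at 1 CPM or more in every library, with a median of 48.0 TPM, percentile 88.9. The inhibitor TIMP1 stood at 630 ± 17.2 TPM, the membrane protease MMP14 at 472 ± 16.7 TPM and the gelatinase MMP9 at 206 ± 10.1 TPM. MMP9 measured 181, 175, 170 and 160 CPM. The collagenase MMP1 and the matrilysin MMP7 averaged 0.213 and 0.0431 CPM. Of 10 secreted or surface matricellular genes, 9 were at 1 CPM or more in every library, with a median of 89.6 TPM, percentile 94.5. GPNMB, a lysosome-associated glycoprotein of lipid-loaded macrophages, led at 1287 ± 71.2 TPM. TGFBI, an extracellular adhesion protein, followed at 1227 ± 30.5 TPM and SPP1, osteopontin, at 1199 ± 79.1 TPM. These 3 did not differ in order beyond their spread. SPP1 measured 921, 1036, 1106 and 904 CPM, higher in DMSO replicates 2 and 3.

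Of 14 iron genes 13 were at 1 CPM or more in every library. Beside ferritin, BLVRB, which reduces biliverdin, stood at 171 TPM and HMOX1, the haem-degrading enzyme, at 146 TPM (118, 138, 140 and 108 CPM), while ceruloplasmin (CP) averaged 0.0103 CPM. All 17 targets of the antioxidant factor NRF2 were at 1 CPM or more in every library, with a median of 90.6 TPM, percentile 94.6. PRDX1, a peroxiredoxin, led at 797 ± 20.1 TPM. TXNRD1, thioredoxin reductase, stood at 100 TPM with libraries of 248, 231, 232 and 243 CPM, and its substrate TXN at 301 TPM. The oxidase chains of the phagosome stood at 486 TPM (CYBB) and 389 TPM (CYBA).

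Immune lists differed widely in level. All 12 genes of class I presentation were at 1 CPM or more in every library, with a median of 568 TPM, percentile 99.3, led by CALR and by B2M, the light chain of class I, at 1518 TPM. Of 11 class II genes 9 were at 1 CPM or more in every library, with a median of 2.78 TPM, percentile 47.9. Their members were far apart, as HLA-DRB1 stood at 502 ± 27.7 TPM and its partner chain HLA-DRA at 32.7 ± 1.86 TPM. The many alleles and copies of the HLA genes make such levels uncertain.

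The lists of secreted inflammatory mediators had medians below that of all protein-coding genes. Of 19 chemokines, 7 (36.8%) were at 1 CPM or more in every library, against 59.2% of all protein-coding genes. Their median was 1.61 TPM, percentile 44.3. CCL5, a T cell attractant, led at 54.8 ± 7.29 TPM, and CCL2, the monocyte attractant, stood at 5.09 ± 1.28 TPM with libraries of 2.78, 4.99, 3.51 and 3.13 CPM. Of 17 cytokines and related genes, 11 (64.7%) were at 1 CPM or more in every library, against the same 59.2%. Their median was 2.67 TPM, percentile 47.5. TGFB1 led at 113 ± 6.16 TPM. IL1B measured 4.54, 5.03, 4.05 and 4.24 CPM, TNF averaged 5.05 ± 0.216 CPM and IL6 0.0126 CPM. IL1RN, which encodes the antagonist of the interleukin 1 receptor, stood at 21.6 TPM against 4.06 TPM for IL1B.

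The lists of NF-kB and feedback, toll-like receptor, interferon-stimulated, Fc and TREM2, and complement genes had higher medians than these mediators. All 13 genes of the NF-kB list were at 1 CPM or more in every library, with a median of 16.6 TPM, percentile 71.6. Of 16 toll-like receptor genes 14 were, with a median of 16.7 TPM, percentile 71.6, and LY96, the partner of TLR4, stood at 156 TPM and TLR4 itself at 47.8 TPM. TLR3 averaged 0.286 CPM and TLR9 had 0 counts, with 86.3% of its exon bases covered by another gene of that strand. Of 21 interferon-stimulated genes 20 were at 1 CPM or more in every library, with a median of 9.25 TPM, percentile 61.8, led by IFI6 at 302 ± 6.28 TPM, and IFI27 averaged 0.254 CPM. All 13 Fc and TREM2 family genes were at 1 CPM or more in every library, and TREM2, a lipid-sensing receptor of macrophages in plaque, stood at 962 TPM. Of 17 complement genes 13 were at 1 CPM or more in every library, and C1QC, a chain of the first component, led at 196 TPM.

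All 22 transcription factors of myeloid cells were at 1 CPM or more in every library, with a median of 57.3 TPM, percentile 90.9. SPI1, which encodes PU.1, led at 353 ± 19.3 TPM, and CEBPA stood at 184 ± 10.4 TPM and RUNX3 at 122 TPM. Of 26 cell cycle genes 24 were at 1 CPM or more in every library, with a median of 44.3 TPM, percentile 88.0. CDKN1A, which encodes the p21 inhibitor, stood at 155 ± 12.6 TPM. TOP2A, the topoisomerase of dividing cells, stood at 141 ± 13.1 TPM with libraries of 326, 303, 311 and 347 CPM. CDKN2A had 0 counts and CCND2 averaged 0.501 CPM. Glycolytic genes had a median of 73.4 TPM, percentile 93.0, with GAPDH at 612 TPM and ENO1 at 505 TPM. The 15 chaperone and stress genes of the endoplasmic reticulum had a median of 494 TPM, percentile 99.2, and the 15 actin cytoskeleton genes 319 TPM, percentile 98.7. In all, 30 of 44 lists had a median above the median protein-coding gene.

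The libraries were close to each other for most genes. The coefficient of variation (CV, the SD divided by the mean) had a median of 6.81% over the 8934 protein-coding genes at 10 CPM or more, with 3.10% at the 10th percentile and 12.5% at the 90th. A CV under 5% was found in 2599 genes (29.1%) and a CV of 20% or more in 86 genes (0.963%). The biological coefficient of variation fitted by edgeR was 8.20% over 16082 genes. Among the 6 steadiest genes at 100 CPM or more were CPSF7 and HNRNPA0, which act on RNA, the protease NRDC, the sorting receptor SORL1 and the Golgi protein GLG1, each with a CV of 0.575% to 0.771%.

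**Figure D3:**
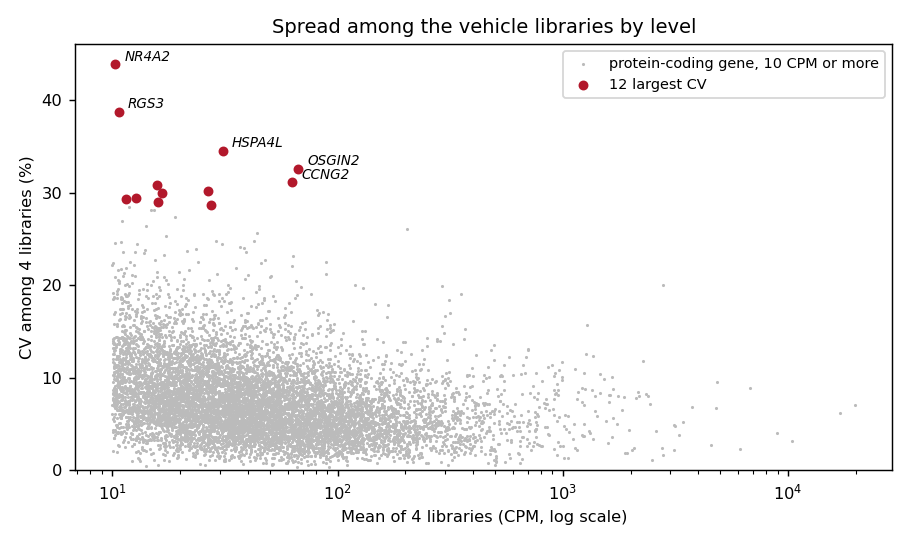
Coefficient of variation among the 4 vehicle libraries (%) against mean level (CPM, log scale) for the 8934 protein-coding genes at 10 CPM or more, each a grey point, with the 12 largest in red. Most genes lie below 12.5%, and the red points lie between 28.7% and 43.9%.

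The genes with the largest spread shared a pattern. NR4A2, an immediate-early orphan nuclear receptor at chr2:156324432-156342348 on GRCh38, had the largest CV, 43.9%, and measured 14.7, 5.77, 7.12 and 13.7 CPM in DMSO replicates 1 to 4. RGS3, a regulator of G protein signalling, measured 14.9, 7.17, 7.12 and 13.6 CPM. HSPA4L, a heat shock protein, measured 40.5, 21.4, 22.1 and 40.2 CPM. In each of these, DMSO replicates 1 and 4 lay about together and above replicates 2 and 3, without overlap. The same order held for OSGIN2 (80.3, 47.0, 49.8 and 90.6 CPM), which encodes an oxidative stress induced growth inhibitor family member. CCNG2, an atypical cyclin of growth arrest, measured 79.1, 44.2, 47.5 and 80.1 CPM. SLC2A3, the neuronal-type glucose transporter, measured 19.6, 11.3, 11.9 and 20.5 CPM. ATF3, a stress-induced transcription factor, measured 36.5, 21.0, 20.8 and 31.8 CPM. The other 5 genes of the 12 with the largest CV were PDE4D (a phosphodiesterase), BBC3 (a pro-apoptotic gene of the BCL2 family), IL1R1 (the interleukin 1 receptor), SYT4 (a synaptotagmin) and IPMK (an inositol phosphate kinase). They too had their highest values in replicates 1 and 4, and in these 12 genes the highest library was 1.75 to 2.55 times the lowest.

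**Figure D4:**
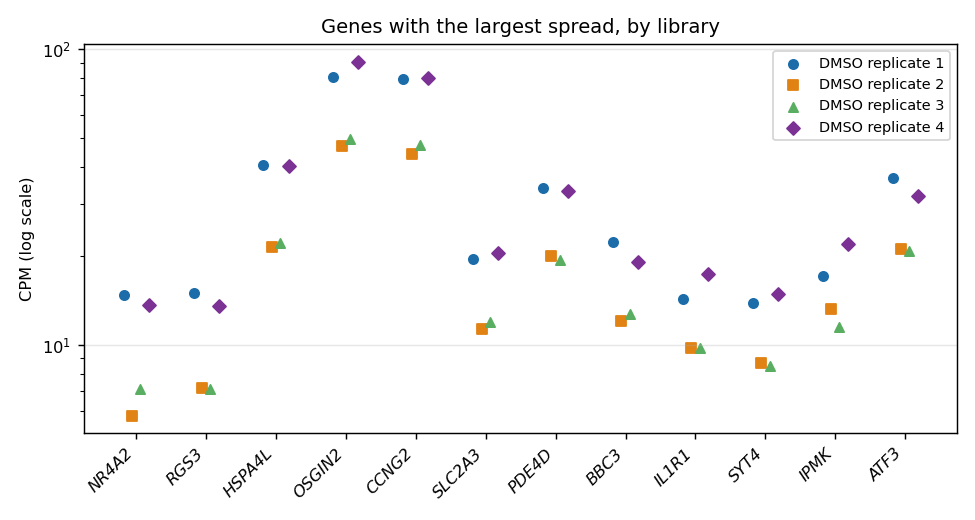
Level (CPM, log scale) of the 12 protein-coding genes with the largest coefficient of variation, with 1 point per vehicle library. In every gene DMSO replicates 1 and 4 (circles and diamonds) lie above replicates 2 and 3 (squares and triangles).

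DMSO replicates 1 and 4 held the highest values in 61 of the 86 genes with a CV of 20% or more (70.9%), against 30.9% of all 8934 genes. DMSO replicates 2 and 3 did so in 18 (20.9%), against 25.3%. These are the libraries that were also most alike across all genes, and neither the final number nor the letter of the library names groups them. Replicates 1 and 4 were the deepest and the shallowest of the 4 libraries. Ribosomal RNA took 0.963% and 0.876% of counts in replicates 1 and 4 and 0.750% and 0.743% in replicates 2 and 3. The mitochondrial genome took 2.57% and 2.69% in replicates 1 and 4 and 2.85% and 3.00% in replicates 2 and 3. Ribosomal protein genes took 5.96% and 5.73% against 6.33% and 6.54%. The part of these in the pattern was not tested.

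High expression was also grouped along a chromosome. Runs of 15 neighbouring protein-coding genes were ordered by their median level, a measure chosen after the values of CAP1 and PPT1 were seen. The highest run in the genome was at chr1:39491646-40423326 on GRCh38, from BMP8A to SMAP2, with a median of 197 TPM. The median over all 11708 runs was 14.97 TPM and the 99th percentile 54.9 TPM. The highest run elsewhere, at chr19:797075-1086628 from PTBP1 to ARHGAP45, had a median of 102 TPM. The chromosome 1 run was the highest in each vehicle library alone, at 196, 170, 163 and 219 TPM. It held 2.52% to 2.59% of all counts.

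Of its 15 genes, 9 were at or above the 90th percentile of protein-coding genes and 5 at or above the 99th, which follows in large part from choosing the run by its median. Runs were built from the 12030 genes at a mean of 1 CPM or more. Of these, 16.4% were at or above that 90th percentile. PABPC4, a cytoplasmic poly-A binding protein, measured 1925 ± 36.6 CPM and 799 TPM. SMAP2, a vesicle traffic regulator, measured 1958 ± 85.3 CPM and 1518 TPM. ZMPSTE24, the protease that matures lamin A, stood at 520 TPM. CAP1 (chr1:40040233-40072649) and PPT1 (chr1:40071461-40097727) overlap at their ends, which without a stated strand setting leaves a part of their reads uncertain. The run also held MYCL, a MYC family transcription factor, at 77.7, 56.2, 54.6 and 76.5 CPM and the lipid transporter MFSD2A at 359, 247, 240 and 321 CPM, both higher in DMSO replicates 1 and 4. The lowest member was OXCT2 at 2.95 TPM. YBX1, of the 20 highest genes, starts at position 42682427 of the same arm, and the genes between them were lower than both YBX1 and PPT1. Copy number was not measured, and its part in these levels was not tested.

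**Figure D5:**
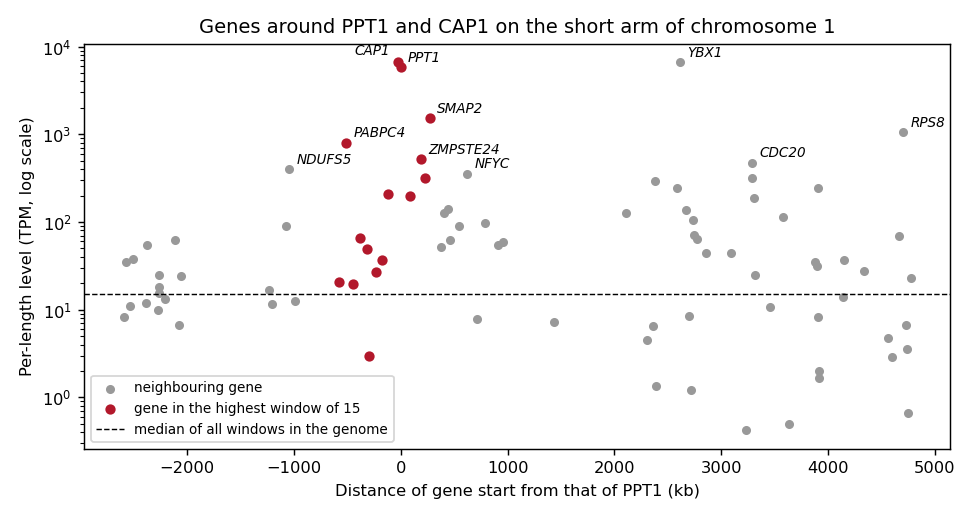
Per-length level (TPM, log scale, mean of 4 libraries) of protein-coding genes by the distance of their start from that of PPT1 (kb). The 15 genes of the highest run (red) lie mostly above the median of all runs in the genome (dashed line, 14.97 TPM), with CAP1 and PPT1 highest, and the genes on both sides scatter around and above that line.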

How the data were processed

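Poly-A RNA was sequenced from 8 foam cell libraries, of which the 4 DMSO libraries were analysed; groups and replicate numbers come from the sample titles. The authors deposited unnormalised read counts, whole numbers, for all genes in 1 table. Per the submitters' processing notes, STAR 2.6.1d, Subread 1.6.3 with featureCounts, and GRCh38 were used. The gene annotation used for counting, its strand option and how multi-mapped reads were handled are not stated in the labels or notes. The table has 62700 rows. Of these, 56945 were matched by symbol or ID to GENCODE 29 (not known to be the annotation that was counted on) for gene type, position and exon length; they hold 99.6% of the counts. CPM were calculated here with edgeR 4.0.16 (R 4.3.3) on TMM-adjusted totals (factors of 0.987 to 1.02). TPM divide counts by the union of a gene's exons; SOD2 had no unique length. The library name labels were tested with glmQLFit and glmQLFTest, two-sided, after filterByExpr, with Benjamini-Hochberg adjustment at 0.05. On simulated counts for 17343 genes the test called 100 of 100 genes at a log2 change of 1 and 100 of 100 at 2. It also called 13 unchanged genes. The simulated counts had the same dispersion for every gene and no likeness of libraries across the labels. Their call rates therefore do not carry over to the libraries tested here. DESeq2 1.42.0, other scalings, no filter on low counts, other lengths and leaving out each library were alternatives.

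The libraries, the 44 lists (557 genes) and the rules were chosen with earlier results of these data known. The rule for named genes, of which there are 242, has 4 parts: the 20 highest per length outside the mitochondrial genome and ribosomal protein genes; for each list up to 4 highest members and up to 2 under 1 CPM in every library; the 12 largest CV at 10 CPM or more and the 6 smallest at 100 CPM or more, protein-coding; and a set of foam cell genes. Several genes that meet it are left out of the text and of 1 figure. EEF1A1P5, EEF1A1P6, H2AC18, H2AC19 and the genes of the chromosome 1 run other than CAP1, PPT1 and YBX1 were named after their values were seen. Depth was 19336073 to 27278947 counts per library; molecular identifiers are not mentioned in the labels, and reads may be copies of the same molecule.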

Additional observations from a re-analysis of the deposited data

Results flagged for a closer look

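Of 184 named genes tested, each with 40 counts or more in total, 8 (4.35%) had a library whose gap to its nearest neighbour was most of the range of the 4 libraries, and chance alone flags about 1 in 20. Low values came from DMSO replicate 4 in 3 genes: the RNA-binding YBX1 measured 4344 CPM there against 4580 to 4616 CPM in the other libraries, the membrane protease MMP14 686 CPM against 769 to 775 CPM, and the class I chain HLA-B 1226 CPM against 1333 to 1342 CPM. The same library was high for the lipopolysaccharide receptor TLR4, with 235 CPM against 221 to 224 CPM. DMSO replicate 1 was high for the receptor antagonist IL1RN, with 30.3 CPM against 23.0 to 23.3 CPM. DMSO replicate 2 was high for the lectin-like receptor KLRF1, with 1.94 CPM against 0.732 to 0.909 CPM. DMSO replicate 3 was low for the collagen COL1A1, with 0.315 CPM against 0.536 to 0.556 CPM, and high for CD68, with 4.91 CPM against 0.330 to 0.701 CPM.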

How the results depend on the processing

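The count of genes at 1 CPM or more in every library and the count at a mean of 100 CPM stayed within 1.5 times their value under each alternative run. The levels of all 242 named genes moved by less than 1 SD under library totals and under DESeq2 size factors; leaving out a library moved 5 of 968 values by more. With the longest transcript as length, 24 of 44 list medians per length moved by more than their spread, and without overlapped members 13 of 23 did, while the number of lists above the median protein-coding gene stayed at 30. Without ribosomal RNA and mitochondrial entries the 100 highest genes held 23.8% of counts. The biological coefficient of variation was 7.17% to 8.68% when a library was left out. With no filter on low counts, 2 genes passed between the final numbers of the library names and 4 between names with and without the letter b; leaving out a library, 1 to 6 and 0 to 7 passed, but 1 side then has 1 library, assumed to vary like the other side. With the other name label as a second term, edgeR called 0 genes in each comparison (214 and 236 at an unadjusted p under 0.05). The highest run on chromosome 1 had a median of 255 TPM over 10 genes, 128 TPM over 25 genes, 292 on the CPM scale and 189 to 201 TPM when a library was left out, all settings chosen after seeing the data. No paired analysis was possible because only the vehicle group was used, and no second group shares its replicate numbers. Precision is limited by 4 libraries, by low counts under 1 CPM and by reads shared between copies or overlapping genes.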

Other observations

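Some genes of the short arm of chromosome 9 were at zero. CDKN2A, CDKN2B, MTAP (an enzyme of methionine salvage) and DMRTA1 had 0 counts in all 4 vehicle libraries, while FOCAD and MLLT3, which lie on the telomeric side, averaged 48.2 ± 3.41 and 5.17 ± 0.698 CPM. The homeobox genes HOXA9 and HOXA10, active in myeloid progenitors, averaged 25.5 ± 2.13 and 16.04 ± 0.976 CPM. These genes were chosen after their values were seen. Neighbours of the chromosome 9 genes on the other side are not given. Zeros were common, as protein-coding genes at 0 counts tie from level rank 16246 of 19812 downward.

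EIF4A1, a translation initiation factor, had 0 counts in every vehicle library, and the read-through entry SENP3-EIF4A1 had 1, 5, 2 and 3 counts. In the annotation another gene of the same strand covers 48.6% of the exon bases of EIF4A1, and the count is not read as its level.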
